A study of Homo sapiens with 22 samples.

Results

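The cells described here were the POU5F1-high, CER1-low cells of the last day of a reprogramming time course, day 15 (D15), when human BJ foreskin fibroblasts had been carried toward pluripotency in microfluidic channels. They were chosen by 2 measured values: a kept cell, with at least 1000 genes and at most 10% of its unique molecular identifiers (UMIs) on mitochondrial genes, was a member if POU5F1 stood at 500 counts per 1000000 UMIs (CPM) or more and CER1 below 200 CPM. POU5F1 encodes the transcription factor OCT4, and CER1 encodes a secreted antagonist of Nodal and BMP made by mesendoderm. The rule held for 2190 of 2679 kept D15 cells, out of 41975 kept cells in the whole series. In pool A 487 of 571 kept cells were members (85.3%, exact binomial 95% interval 82.1 to 88.1%), and in pool B 1703 of 2108 were (80.8%, 79.0 to 82.4%). These intervals cover counting error only.

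Per the study's methods, BJ cells are skin fibroblasts of a human newborn. RNAs encoding POU5F1, SOX2, KLF4, MYC, LIN28 and NANOG were transfected daily until the medium was changed, on D9, to one for pluripotent cells. Cells of D9, D11, D13 and D15 were compared, and all had received the same RNAs. Per the study's methods, the whole process was run in a hypoxia incubator. Each day had 2 pools, A and B, each holding cells of 4 chips that were mixed and frozen before droplet capture. The pools are the replicates (n = 2 a day), all of 1 cell line, so that p-values describe the spread between pools. Whether pools A and B came from separate cultures is not given by the labels.

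Human pluripotent cells exist in a primed state, which resembles the epiblast after implantation and depends on FGF and activin signals, and in a naive state, which resembles the epiblast before it. POU5F1, SOX2 and NANOG form the core of the network that keeps either state, and the state is read from further genes, such as DPPA3 and DNMT3L for the naive and OTX2 for the primed state. On their way from fibroblasts, reprogramming cells lose collagens and other mesenchymal genes and gain epithelial ones.

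The members of D15 had a median of 58306 UMIs in pool A and 31537 in pool B, against 70301.5 and 53505 for the same class on D11. The median share of UMIs on mitochondrial genes was 5.83% and 6.36% on D15 and 4.31% and 3.64% on D11. Members made up 48.9% and 51.7% of the kept cells on D11 and 60.3% and 68.7% on D13, and 0 were found on D0, D3 and D5 (exact upper limit at most 0.452% in a pool). The pools of 1 day differed in the genes of the rule. Among D13 members the median of POU5F1 was 1862 CPM in pool A and 836 CPM in pool B, whereas the D15 pools matched at 1298 and 1297 CPM. Among D11 members 25.3% had no CER1 UMI in pool A and 80.3% in pool B. Of 3001 D15 barcode sequences, 168 also occurred in another library, and 24 members of pool A and 96 of pool B carried such a barcode.

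Few D15 cells lay near the limits of the rule. Between 400 and 500 CPM of POU5F1 there were 0 kept cells in pool A and 6 in pool B, and between 500 and 600 CPM there were 1 and 7. The 6 cells just under the limit in pool B together held 3099 CPM of VIM, the intermediate filament gene of fibroblasts, and 1194 CPM of COL1A1, against 164 and 71.1 CPM in the 7 cells just above. For CER1, 0 and 20 members lay between 100 and 200 CPM, and 1 cell of each pool with POU5F1 above its limit lay between 200 and 300 CPM. Of the 489 kept cells that were not members, 480 were below the POU5F1 limit and 9 were above it with high CER1. Cells below the POU5F1 limit could have high CER1 too. In all, 18 kept cells of pool A and 117 of pool B had CER1 at 200 CPM or more, and 1 and 8 of these were above the POU5F1 limit.

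The label of a pluripotent cell was set beside markers that the rule did not use, as a description, since these cells were split by POU5F1. SOX2, the partner of OCT4 on many enhancers, stood at 309.8 and 281 CPM in the D15 members of pools A and B and at 15.7 and 32.2 CPM in the other kept cells of the same pools. L1TD1, an RNA-binding protein of pluripotent cells, stood at 1156 and 996 CPM against 125 and 165. After thinning each cell to 10000 UMIs, 92.4% and 89.9% of members held a SOX2 UMI, against 17.9% and 24.9% of the other kept cells and 0 of 1000 D0 fibroblasts drawn from each pool, which allows a share of up to 0.3%. Without thinning the shares of members were 99.2% and 98.5%. PTPRZ1, a receptor-type tyrosine phosphatase, was detected in 51.5% and 40.8% of members, and KIF1A, a kinesin motor of vesicle transport, in 54.8% and 54.7%. In the other kept cells these shares were 5.95% and 5.66% for PTPRZ1 and 7.14% and 7.71% for KIF1A, and KIF1A reached 0.1% of D0 fibroblasts in pool B. Without thinning 91.2% and 76.3% of members held a PTPRZ1 UMI and 92.2% and 86.4% a KIF1A UMI, so these shares depend on the number of UMIs per cell. SOX2, PTPRZ1 and KIF1A are also among the leading genes below, which were ranked on this same contrast. Other such genes differed less: LIN28A stood at 599 and 350.2 CPM against 222 and 152, and THY1 at 329 and 378 against 235 and 272. OTX2 was lower in members. The 20 primed-state genes summed to 2717 and 2896 CPM against 895 and 1093. NANOG was detected in 30.4% and 37.3% of thinned members.

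Most genes of the mesendoderm, neuroectoderm and trophoblast lists were low in the members, while fibroblast genes were still detected. Of 18 mesendoderm genes, 7 were under 1 CPM in both D15 pools and 0 were over 10 CPM in both. The list holds CER1, which chose the members. Without CER1 the 17 other genes summed to 22.7 and 22.8 CPM in members against 503 and 463 CPM in the other kept cells. SOX17, the endoderm transcription factor, stood at 0.825 and 1.48 CPM in members against 50.9 and 57.5 CPM. The other kept cells include those with high CER1, which the rule kept out of the members. Of 16 neuroectoderm genes, 13 were under 1 CPM in both pools, among them PAX6 and SOX1, and of 18 amnion and trophoblast genes 14 were. The 32 fibroblast genes together made up 1052 and 1542 CPM in members and 23146 and 23103 CPM in the other kept cells, and 14 of them were over 10 CPM in the members of both pools.

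The genes that most set members apart from the other kept D15 cells are listed as a description, because the rule itself split these cells. The 12 leading genes, at 50 CPM or more in the members of both pools and ranked by the lower of the ratios of pools A and B, were RP11-1144P22.1, SCG3, PTPRZ1, USP44, RP11-132A1.3, FOXD3-AS1, SOX2, POLR3G, TERF1, KIF1A, RP11-267L5.1 and DPPA5. Their ratios of CPM ran from 6.78 to 13.1 in the pool with the lower ratio. TERF1, a protein of telomeres, stood at 1892 and 1799 CPM in members and 180.5 and 242 CPM in the others. USP44, a deubiquitinase, stood at 266 and 283 against 16.7 and 31.6 CPM. POLR3G, a subunit of RNA polymerase III, stood at 147 and 123 against 14.2 and 15.3 CPM. Of the 12, 4 are long noncoding RNAs, among them FOXD3-AS1 at 445 and 305 against 26.0 and 34.7 CPM, which starts beside the transcription factor gene FOXD3. In the annotation of GRCh38 (GENCODE 44), SOX2 lies at chr3:181711925-181714436, PTPRZ1 at chr7:121873089-122062036 and KIF1A at chr2:240713761-240824293.

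SOX2 being both a leading gene and higher on D15 than on D11, as given below, the promoters of the leading genes and of the largest rises and falls were searched for the sequence that SOX proteins bind, CCTTTGTT, and for the octamer bound by OCT4, ATGCAAAT, on both strands. RefSeq sequences from 250 bases before to 50 bases after the start were at hand for 6 of 12 leading genes, 5 of 12 rises and 8 of 12 falls. The SOX element occurred in 549 of 35116 promoters of the annotation (1.56%), and the octamer in 623 (1.77%). The octamer was in none of their promoters, which says only that these letters are not in these windows. The SOX element was in the promoters of FOXD3-AS1 and SCG3 among the leading genes and of LRRN1 among the rises. They are shown 5′ to 3′ on the strand of the gene, with the element in capitals, since they are the genes described here whose windows hold it (RefSeq, GRCh38.p14).
FOXD3-AS1, chr1:63322409-63322708, minus strand: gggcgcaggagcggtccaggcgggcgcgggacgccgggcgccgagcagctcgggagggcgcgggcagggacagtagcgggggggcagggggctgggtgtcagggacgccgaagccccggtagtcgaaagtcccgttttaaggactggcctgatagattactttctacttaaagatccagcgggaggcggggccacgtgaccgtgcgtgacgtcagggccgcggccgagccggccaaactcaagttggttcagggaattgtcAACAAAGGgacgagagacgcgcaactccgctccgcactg
LRRN1, chr3:3799181-3799480, plus strand: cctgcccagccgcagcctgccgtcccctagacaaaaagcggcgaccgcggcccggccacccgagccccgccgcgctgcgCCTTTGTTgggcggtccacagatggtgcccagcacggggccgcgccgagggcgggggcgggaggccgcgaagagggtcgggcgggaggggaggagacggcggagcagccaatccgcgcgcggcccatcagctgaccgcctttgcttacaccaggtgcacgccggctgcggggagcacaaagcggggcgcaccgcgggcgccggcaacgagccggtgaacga
SCG3, chr15:51681253-51681552, plus strand: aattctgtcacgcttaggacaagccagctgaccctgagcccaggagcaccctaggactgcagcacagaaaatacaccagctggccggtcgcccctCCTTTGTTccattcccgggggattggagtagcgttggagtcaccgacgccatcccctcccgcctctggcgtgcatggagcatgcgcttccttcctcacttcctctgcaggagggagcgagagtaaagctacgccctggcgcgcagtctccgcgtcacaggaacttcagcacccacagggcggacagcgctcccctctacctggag
The element began 171 bases before the start in LRRN1 and 155 before it in SCG3, and in FOXD3-AS1 it lay 11 bases after the start and on the other strand. A match is a description of the sequence and not evidence of binding.

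The question of the comparison with D11 was what changed within the class in its last days. UMIs were summed over the members of each pool, and 13326 genes were tested with edgeR's quasi-likelihood test over the 8 pools of D9 to D15. A gene was called at an adjusted p below 0.01 and a log2 change beyond 0.25. Of the genes tested, 292 (2.19%) were called, 108 (0.81%) higher and 184 (1.38%) lower on D15. At an adjusted p below 0.05, the looser limit, there were 1098 (8.24%), 476 higher (3.57%) and 622 lower (4.67%). The pools of the 2 days did not overlap for 65.4% of genes, with D15 higher for 30.8% and lower for 34.5%, so that pools that do not overlap are the usual case here. With 2 pools a day the strict count rests on every pool: it was 0 without D15 A, without D15 B, without D11 A, without D11 B and without the D9 pools. With the pool letter as a block it was 75.

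**Figure D1:**
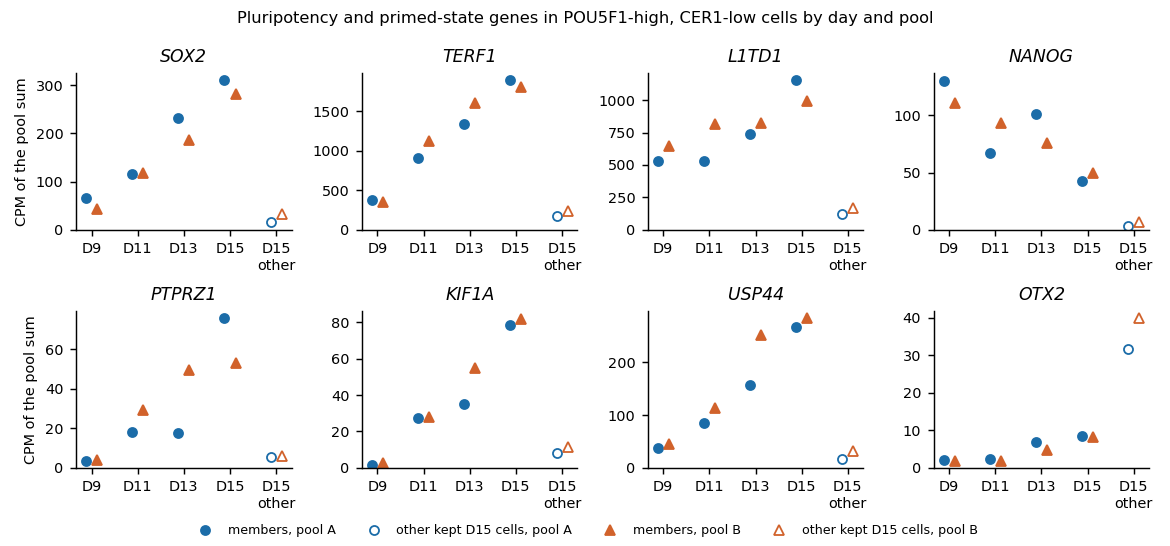
Levels of 8 pluripotency and primed-state genes, in CPM of the pool sum (vertical axes, from 0), in the members of each day and in the other kept cells of D15. Circles are pool A and triangles pool B, filled for members and open for other cells. SOX2, KIF1A and USP44 lie higher in both D15 pools than in both D11 pools, NANOG lies lower, and OTX2 lies highest in the cells that were not members.

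Of 19 core pluripotency genes tested, 1 was called higher, SOX2, and 0 lower, against 0.81% and 1.38% of all genes. Their median log2 difference was 0.48, against -0.0018 over all genes. Against D13 members their median was 0.063. SOX2 stood at 115 and 117 CPM on D11 and 309.8 and 281 CPM on D15. The D15 pools lay above those of every earlier day, and the log2 difference was 1.37 (SE 0.23, adjusted p = 0.00957). SOX2 was also among the transfected RNAs, and RNA from the cell's own gene cannot be told apart from it in these counts. Per the study's methods, transfection had ended before D9. In D9 members SOX2 stood at 66.16 CPM in pool A and 43.998 CPM in pool B, below both D11 pools. The part of transfected RNA in the levels of each day was not tested. TERF1 rose at the looser limit, from 907 and 1123 to 1892 and 1799 CPM (log2 difference 0.89, SE 0.19, adjusted p = 0.0231). GDF3, a TGF-beta family ligand, fell at that limit from 184 and 149.7 to 59.4 and 62.4 CPM (log2 difference -1.43, adjusted p = 0.0304). NANOG, chosen after its values were seen, stood at 67.5 and 93.5 CPM on D11 and 42.6 and 49.5 CPM on D15, with an adjusted p of 0.0663. Both D15 pools thus lay above both D11 pools for SOX2 and below them for NANOG, and only the first difference was called.

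Of 19 primed-state genes tested, 1 was called higher and 0 lower, against 0.81% and 1.38% of all genes. At an adjusted p below 0.05, 7 were higher and 0 lower, against 3.57% and 4.67% of all genes. The median log2 difference was 0.68. Against D13 it was -0.018, so the higher level of this list was not particular to D15. The 20 genes of the list summed to 1846 and 2316 CPM on D11, 3084 and 2600 CPM on D13 and 2717 and 2896 CPM on D15. OTX2, a homeobox factor of the primed epiblast, stood at 2.43 and 1.94 CPM on D11 and 8.42 and 8.21 CPM on D15 (log2 difference 1.95, SE 0.26, adjusted p = 0.00561). Its level in the other kept D15 cells was 31.6 and 39.9 CPM, above both pools of members, so OTX2 is not a marker of the members. KIF1A stood at 27.2 and 27.8 CPM on D11 and 78.5 and 82.0 CPM on D15 (log2 difference 1.57, SE 0.31, adjusted p = 0.0183), past the looser limit only. PTPRZ1 stood at 18.0 and 29.1 and then 75.7 and 53.1 CPM. Its pools did not overlap between the days, but they spread widely within D13, at 17.4 and 49.4 CPM, and the difference of 1.48 (SE 0.46) passed neither limit (adjusted p = 0.0861). ZIC5, NLGN4X, SALL2 and USP44 were among the genes of this list past the looser limit.

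Of 13 naive-state genes tested, 3 were called lower, against 1.38% of all genes. At an adjusted p below 0.05, 5 were lower and 0 higher, against 4.67% and 3.57% of all genes. The median log2 difference was -1.43. DPPA3, a maternal factor that protects DNA methylation in the early embryo, fell from 23.5 and 25.1 to 4.23 and 3.43 CPM (log2 difference -2.64, SE 0.21, adjusted p = 0.0025). SUSD2, a surface marker of naive cells, fell from 5.46 and 8.02 to 1.27 and 1.03 CPM. DNMT3L, the cofactor of the DNA methyltransferases DNMT3A and DNMT3B, stood at 2.73 and 3.51 CPM on D11 and 0.0344 and 0.180 CPM on D15, which is 1 UMI in pool A and 10 UMIs in pool B, and it was called lower. NODAL and TFAP2C fell at the looser limit. DPPA5 is on the same list and stood at 114 and 146 CPM on D11 and 163 and 168 CPM on D15 (adjusted p = 0.283).

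**Figure D2:**
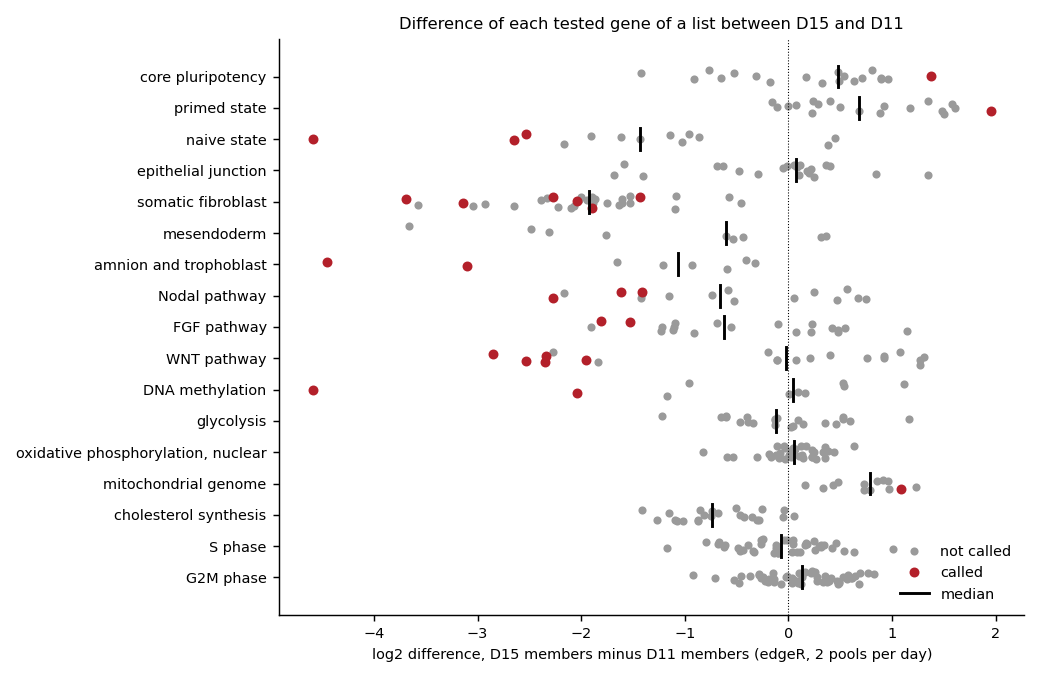
The log2 difference between D15 and D11 members (horizontal axis) for every tested gene of 17 gene lists (rows). Grey points were not called, red points were called at an adjusted p below 0.01, and black bars are medians. The fibroblast list lies wholly below 0, and the naive list lies mostly below 0.

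Of 10 DNA methylation genes tested, 2 were called lower and 0 higher, against 1.38% and 0.81% of all genes. These were DNMT3L and GADD45B, a stress-induced gene linked to demethylation, which fell from 69.9 and 41.1 to 12.5 and 14.1 CPM. DNMT3B, which writes new methylation in the epiblast, stood at 115 and 189.9 CPM on D11 and 236 and 196 CPM on D15 (adjusted p = 0.186). The maintenance enzyme gene DNMT1 stood at 108 and 125 CPM and then at 164 and 165 CPM, without passing either limit.

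Fibroblast genes were lower in D15 members without exception among those tested. Both D15 pools lay below both D11 pools for 32 of 32 genes, against 34.5% of all genes. Of the 32, 6 were called lower and 17 passed the looser limit downward, against 1.38% and 4.67% of all genes. The median log2 difference was -1.92. COL1A2, a chain of type I collagen, stood at 182 and 135 CPM on D11, 79.0 and 131 CPM on D13 and 29.9 and 45.9 CPM on D15 (log2 difference -2.04, SE 0.34, adjusted p = 0.00986). VIM fell from 597 and 487 to 118 and 167 CPM, and TAGLN, an actin-binding protein of contractile cells, from 1542 and 984 to 198 and 318 CPM. Over the whole list the summed level was 7032 CPM in pool A and 3580 CPM in pool B on D11, and 1052 and 1542 CPM on D15, so that the D11 pools differed from each other but both lay above D15. At 10000 UMIs a member of D11 held a median of 59 and 21 UMIs of these genes, and a member of D15 held 9 and 13. Summed over 3 collagen genes, 1395 of 1430 and 1669 of 1698 members were below 1000 CPM on D11, and 487 of 487 and 1701 of 1703 on D15. With those members alone 238 genes were called. Whether free RNA or doublets had a part in these levels was not tested.

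Epithelial genes showed no common direction. Of 22 tested, 0 were called in either direction, against 2.19% of all genes. At the looser limit 1 was higher and 2 were lower, against 3.57% and 4.67% of all genes. The median log2 difference was 0.08. The 2 lower ones were keratins of simple epithelia. KRT18 fell from 2248 and 1980.4 to 576 and 717 CPM, and KRT8 from 977 and 923 to 283 and 339 CPM. EPCAM, an adhesion molecule of epithelial and pluripotent cells, stood at 346 and 391 and then 229.9 and 218 CPM (adjusted p = 0.131), and the tight junction gene CLDN6 at 389.7 and 354 and then 349.7 and 374 CPM.

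Signalling genes of the Nodal, FGF and WNT pathways were next. Nodal and activin sustain the primed state through SMAD2 and SMAD3, and the LEFTY proteins and CER1 block the ligand. Of 16 Nodal pathway genes tested, 3 were called lower and 0 higher, against 1.38% and 0.81% of all genes. At the looser limit 5 were lower and 0 higher, where 4.67% and 3.57% of all genes were. LEFTY2 fell from 407 and 374 to 67.4 and 91.0 CPM (log2 difference -2.27, SE 0.35, adjusted p = 0.00819). FST, the activin-binding protein follistatin, was called lower too. The ligand NODAL stood at 219 and 182 CPM on D11, 160.3 and 52.3 CPM on D13 and 39.7 and 48.1 CPM on D15, past the looser limit only (adjusted p = 0.018). The receptors ACVR1B, ACVR2A and ACVR2B and the transducers SMAD2 and SMAD4 passed neither limit. CER1 itself chose the members and is given no test: it stood at 22.6 and 7.10 CPM on D11 and 5.05 and 11.5 CPM on D15.

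Of 20 FGF pathway genes, 2 were called lower, against 1.38% of all genes. They were ETV5 and DUSP4, a transcription factor and a phosphatase that respond to the pathway. ETV5 fell from 59.1 and 65.8 to 19.5 and 22.8 CPM (log2 difference -1.53, SE 0.18, adjusted p = 0.0037). At the looser limit 5 genes of this list were lower and 1 was higher, and the median log2 difference was -0.62. The higher one was the receptor FGFR1, which went from 52.4 and 63.1 to 137 and 114 CPM. The ligand FGF2 stood at 39.0 and 51.7 and then 53.5 and 50.6 CPM. Of 20 WNT pathway genes, 5 were called lower and 0 higher, against 1.38% and 0.81% of all genes. These were the ligands WNT3, WNT5A and WNT5B, the receptor FZD2 and the target SP5. WNT3 fell from 11.1 and 11.8 to 1.99 and 2.36 CPM (log2 difference -2.35, SE 0.23, adjusted p = 0.00254). The receptor FZD3 and the repressor TCF7L1 rose at the looser limit, and the list's median log2 difference was -0.02.

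Of 8 amnion and trophoblast genes tested, 2 were called lower, against 1.38% of all genes. TFAP2A, a transcription factor of trophoblast and surface ectoderm, fell from 5.01 and 5.33 to 0.481 and 0.667 CPM. CSH1, a placental lactogen, stood at 144 and 95.7 CPM on D9, 237 and 254 CPM on D11, 109 and 29.1 CPM on D13 and 7.90 and 13.8 CPM on D15 (log2 difference from D11 -4.46, SE 0.59, adjusted p = 0.00561). CSH2 fell too, but the sequences of these 2 genes are nearly the same, so how the counting split their reads is uncertain. A CSH1 UMI was found in 48.0% and 28.4% of thinned members on D11 and in 1.64% and 5.43% on D15.

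Next come genes among the 12 largest rises of those called, at 20 CPM or more in both D15 pools. NEFM, a neurofilament subunit, stood at 4.23 and 4.37 CPM on D11 and 23.2 and 22.3 CPM on D15, and the log2 difference was 2.43 (SE 0.22, adjusted p = 0.0025). ATCAY, which encodes the brain protein caytaxin, rose from 6.76 and 7.64 to 30.3 and 28.7 CPM. GNG4, a G protein gamma subunit, rose from 6.25 and 5.62 to 22.8 and 23.5 CPM (log2 difference 1.99, SE 0.20, adjusted p = 0.00254). These 3 genes were all lower in the other kept D15 cells, at most 5.65 CPM in a pool, while 4 neuroectoderm genes tested were all lower in both D15 pools than in both D11 pools (median log2 difference -0.57, 0 called), as were 34.5% of all genes, and 1 of them, FABP7, passed the looser limit (adjusted p = 0.0409).

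IDO1, which breaks down tryptophan, rose from 5.74 and 6.27 to 34.5 and 22.6 CPM, and its D13 pools, at 15.2 and 24.2 CPM, already stood above those of D11. LRRN1, a leucine-rich repeat membrane protein whose promoter is shown above, rose from 5.31 and 6.99 to 28.9 and 24.2 CPM (log2 difference 2.14, SE 0.24, adjusted p = 0.00327). MIAT, a long noncoding RNA, rose from 8.57 and 8.35 to 26.9 and 27.5 CPM. TNNI3, the troponin I of heart muscle, rose from 17.7 and 20.7 to 54.3 and 64.9 CPM, and TSTD1 from 47.1 and 51.9 to 165 and 152 CPM. C1orf21, LINC01405 and HAGHL were also among the 12, with log2 differences of 2.35, 2.17 and 1.81. C1orf21 stood at 29.9 and 23.4 CPM in D15 members and at 48.0 and 21.3 CPM in the other kept cells, so the pools disagreed on which was higher.

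**Figure D3:**
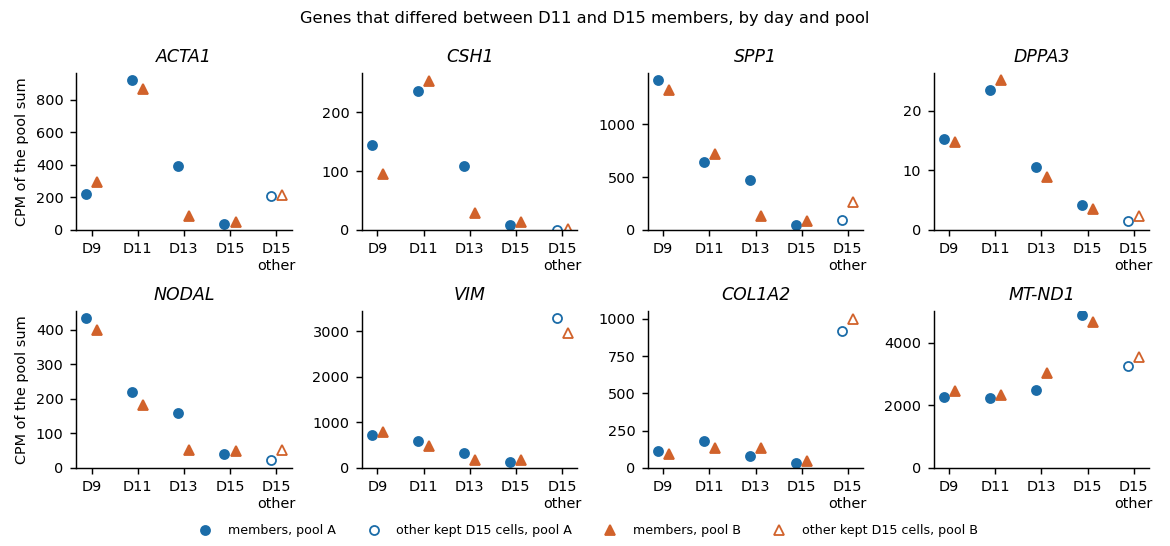
Levels of 8 genes, in CPM of the pool sum (vertical axes, from 0), in the members of each day and in the other kept cells of D15. Circles are pool A and triangles pool B, filled for members and open for other cells. ACTA1 and CSH1 are highest on D11 and low in both pools of D15, where MT-ND1 is highest.

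The 12 largest falls reached further than the rises, with log2 differences between -6.31 and -3.14, against 1.67 to 2.43 for the rises. MMP1, the interstitial collagenase, stood at 95.7 and 34.8 CPM on D11 and 0.172 and 1.30 CPM on D15, which is 5 and 72 UMIs. ACTA1, the actin of skeletal muscle, stood at 221 and 293 CPM on D9, 918 and 862 CPM on D11, 390.3 and 85.3 CPM on D13 and 34.2 and 46.2 CPM on D15 (log2 difference from D11 -4.44, SE 0.60, adjusted p = 0.00594). ACTG2, the gamma actin of smooth muscle, fell from 252 and 140.1 to 9.35 and 21.5 CPM. The D13 pools lay far apart for ACTA1 and CSH1, with pool A above pool B and both between the pools of D11 and D15.

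CYP26A1, which breaks down retinoic acid, fell from 78.6 and 109 to 2.27 and 6.15 CPM and stood at 55.1 and 125 CPM in the other kept D15 cells. SPP1, the secreted protein osteopontin, fell from 645 and 718 to 47.3 and 80.2 CPM (log2 difference -3.38, SE 0.51, adjusted p = 0.00777), after 1417 and 1326 CPM on D9. IGFBP7, which binds insulin-like growth factors, fell from 347 and 330.5 to 20.9 and 36.4 CPM. HPGD, which inactivates prostaglandins, fell from 80.7 and 120.2 to 8.39 and 11.8 CPM. The DNA sensor IFI16, the chemokine CXCL14, the cytokine IL32 and CSH2 made up the 12. Of the cell cycle inhibitors and p53 targets, 20 were tested and 1 was called, against 2.19% of all genes. This was CDKN2A, the p16 locus that limits reprogramming, which fell from 18.9 and 16.9 to 1.44 and 3.27 CPM. At the looser limit 3 of the 20 were lower and 0 higher, where 4.67% and 3.57% of all genes were. Both D15 pools lay below both D11 pools for 17 of them, against 34.5% of all genes, and the median log2 difference was -0.61.

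Of 42 S phase genes 0 were called or passed the looser limit, and of 54 G2M genes 0 were called and 1 passed it. At 10000 UMIs a D15 member held a median of 30 and 27 UMIs of the S phase list, against 23 and 28 on D11 and 10.5 and 9 in the other kept D15 cells. Of 22 glycolysis genes 0 were called, of 37 nuclear oxidative phosphorylation genes 0 were called, and of 18 imprinted genes 0 were called. Among all genes tested 2.19% were called. Finding 0 called genes in lists of this length therefore says little about them. Of 23 cholesterol synthesis genes 0 were called and 6 were lower at the looser limit, where 4.67% of all genes were. Both D15 pools lay below both D11 pools for 20 of the 23, against 34.5% of all genes, and the median log2 difference was -0.74. Their summed level was 2079.7 and 2044 CPM on D11, 1458 and 1095 CPM on D13 and 1249 and 1402 CPM on D15. Against D13 the median log2 difference of this list was 0.015. HSP90AA1, a heat shock chaperone, was higher at that limit, with 1868 and 2053 CPM on D11, 1713 and 1667 CPM on D13 and 3224 and 3365 CPM on D15 (log2 difference 0.78, adjusted p = 0.0195).

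The 13 genes of the mitochondrial genome, which encode subunits of the respiratory chain, had a median log2 difference of 0.79, and 10 of them had both D15 pools above both D11 pools, as had 30.8% of all genes. MT-ND1, a subunit of complex I, was called, with 2243 and 2329 CPM on D11 and 4874 and 4667 CPM on D15 (log2 difference 1.09, SE 0.18, adjusted p = 0.00925). MT-CO1 of complex IV stood at 8751 and 8786 and then 9632 and 12062 CPM (adjusted p = 0.295). The level in the other kept D15 cells, at 3267 and 3555 CPM of MT-ND1, lay between the 2 days. The share of mitochondrial UMIs was also the filter on cells, and the part of cell quality in this result was not tested.

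Against D13, 0 of 13326 genes were called by edgeR (0%), with 2446 at an unadjusted p below 0.05, whereas DESeq2 called 196. The D13 pools differed from each other: without D13 B 1435 genes were called, and without D13 A 0 were. LIN28A, which encodes an RNA-binding protein, stood at 198 and 609 CPM in the D13 pools and 599 and 350.2 CPM in the D15 pools, and VIM at 324 and 179 and then 118 and 167 CPM. For several of the D11 falls the D13 level was in between in both pools, as for DPPA3 at 10.6 and 8.81 CPM, IGFBP7 at 153 and 94.8 CPM and HPGD at 29.0 and 18.9 CPM. The median log2 difference from D13 was -1.20 over the fibroblast list and -1.08 over the naive list. It was 0.063 over the core, -0.018 over the primed and 0.015 over the cholesterol list, and -0.039 over all genes. That so few genes were called here does not show that the classes of D13 and D15 are alike.

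Variability among the members of D15 was measured as the variance over the mean of UMIs at 10000 UMIs per cell, which is 1 for counting noise alone. Of 4231 genes at 20 CPM or more the median was 1.06 in pool A and 1.05 in pool B, and 72 genes exceeded 2 in both pools. MALAT1, a nuclear long noncoding RNA, came first with 21.6 and 17.1. Mitochondrial genes followed, with 11.9 and 8.73 for MT-CO2. The 20 most variable genes further held GAL, HIST1H4C, ACTA1, IGFBP2, TAGLN, TMSB4X, HSP90AA1, LEFTY1, CALD1, LEFTY2, VIM, LINC00458, NTS and MT1G, beside MT-CO1, MT-CO3, MT-ATP6 and MT-ND4.

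**Figure D4:**
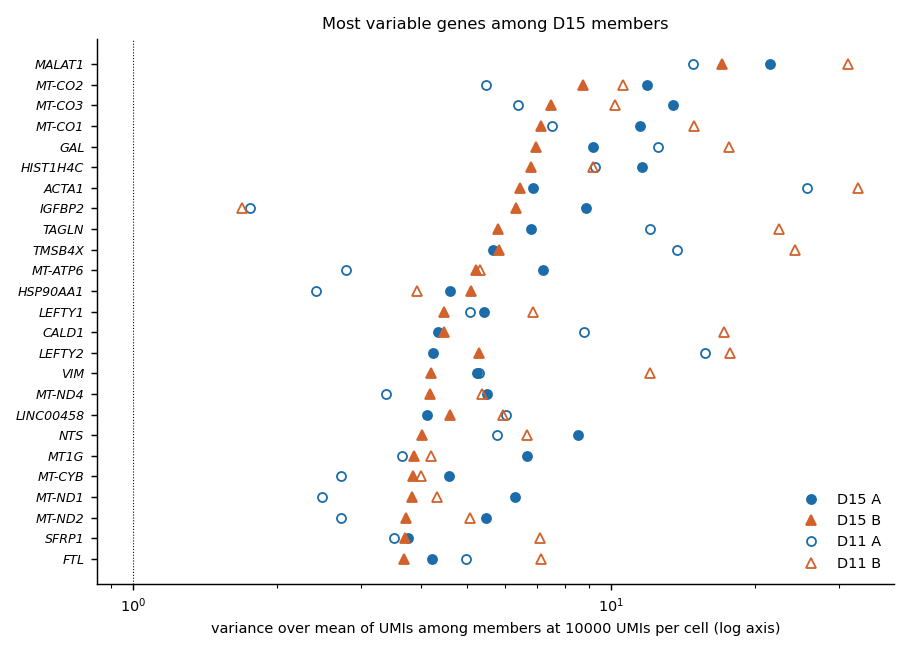
Variance over mean of UMIs among members at 10000 UMIs per cell (log axis) for the 25 most variable genes of D15. Filled symbols are D15 and open symbols D11, circles are pool A and triangles pool B, and the dotted line at 1 marks counting noise. ACTA1, TAGLN and LEFTY2 had the higher ratio on D11, where their means were also higher, and IGFBP2 had the higher ratio on D15.

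Few members held most of the UMIs of ACTA1. At 10000 UMIs per cell ACTA1 was detected in 13.3% and 20.6% of D15 members, and without thinning in 41.1% and 43.8%. In thinned cells the 5% of members with the most ACTA1 held 71.8% and 59.1% of its UMIs. On D11 it was detected in 89.0% and 65.4% of members, with a variance over mean of 25.7 and 32.9 against 6.88 and 6.45 on D15. This ratio grows with the mean, which was 8.54 and 8.00 UMIs on D11 and 0.292 and 0.416 on D15. The variance over the squared mean of ACTA1 went the other way, with 3.01 and 4.12 on D11 and 23.6 and 15.5 on D15. TAGLN and CALD1, another actin-binding protein, went together over members, with Pearson's r of 0.469 over 487 members of pool A and 0.451 over 1656 members of pool B, on log2(UMIs + 1). TAGLN and TERF1 went opposite ways, with r of -0.486 and -0.352. These are descriptions of cells that share a library, with equal numbers of UMIs per cell.

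At 10000 UMIs LEFTY1 was detected in 30.6% and 43.0% of D15 members, where the top 5% held 42.0% and 36.1% of its UMIs, and LEFTY2 in 26.3% and 35.7%. Without thinning 55.9% and 63.9% of members held a LEFTY1 UMI and 54.6% and 61.7% a LEFTY2 UMI. At 10000 UMIs on D11 the shares were 70.2% and 62.4% for LEFTY1 and 75.2% and 59.1% for LEFTY2. The 2 genes went together, with r of 0.491 and 0.455 on D15, though they are similar in sequence and the counting could move reads between them. LINC00458, a long noncoding RNA, was detected in 19.9% and 26.1% of thinned members (47.8% and 45.7% without thinning), and the top 5% held 59.7% and 49.9% of its UMIs. It does not mark the members, since it stood at 44.4 and 74.5 CPM in them and at 80.6 and 126 CPM in the other kept cells. SOX2 had 13.9% and 13.7% of its UMIs in the top 5%, at a median of 3 UMIs per member in both pools, against 0 for LEFTY1, LEFTY2 and LINC00458. Counting noise alone raises this share at low levels, so it does not compare the spread of genes of unlike level. GAL, which encodes the neuropeptide galanin, was detected in 93.0% and 96.4% of members, with 25.5% and 21.2% of its UMIs in the top 5%. Its level fell from 2002 and 1870.2 CPM on D11 to 598 and 726 CPM on D15 (log2 difference -1.52, SE 0.20, adjusted p = 0.00561). HIST1H4C, a histone gene of S phase, had a variance over mean of 11.6 and 6.79. CST1 showed how 1 cell can set a value, since 1 member of pool A held 56.0% of that pool's CST1 UMIs.

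The metallothioneins, which bind zinc and copper, were correlated over D15 members, with r of 0.715 and 0.573 for MT1G and MT1H. MT1G stood at 789 and 699 CPM on D11 and 724 and 398 CPM on D15 (adjusted p = 0.407) and at 56.3 and 67.0 CPM in the other kept cells. The similarity of these genes leaves the split of their reads uncertain. The mitochondrial genes went together most closely, with r of 0.870 and 0.788 for MT-CO2 and MT-ATP6. A minority of members, 25 of pool A (5.13%) and 57 of pool B (3.35%), had under 2% of UMIs on mitochondrial genes. They had a median of 16385 and 10141 UMIs, against 59441.5 and 31980 for the other members, and held 209 and 214 CPM of SOX2 against 312 and 282 CPM. TERF1 stood at 1541 and 1734 against 1898 and 1800 CPM. POU5F1, a gene of the rule, went the other way, at 1419 and 1442 against 1304 and 1300 CPM. What part depth or RNA quality had in them was not tested.

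Of 780 pairs among the 40 most variable genes, 44 had an r of 0.3 or more in both D15 pools, most of them between mitochondrial genes or between metallothioneins, and 2 had an r of -0.3 or less. The pair of IGFBP2 and LDHA, picked after its values were seen, differed from D11. IGFBP2, which binds insulin-like growth factors, and LDHA, the enzyme that turns pyruvate into lactate, had r of 0.477 and 0.472 on D15, 0.314 and 0.245 on D13, and -0.0017 and 0.0574 on D11. The mitochondrial transcript MT-CO2 went against this pair on D15. Its r with LDHA was -0.278 and -0.399 on D15 and 0.025 and -0.0665 on D11, and its r with IGFBP2 was -0.190 and -0.353 on D15. The part of cell quality in these correlations was not tested. LDHA varied more on D15 than on D11, with a variance over mean of 3.46 and 4.16 against 1.42 and 1.81, at about the same level, 449.9 and 727 CPM against 639 and 565 CPM in thinned members. On D13 the ratio was 3.89 in pool A and 2.02 in pool B, at 881 and 456 CPM, so D13 A was as high as D15.

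**Figure D5:**
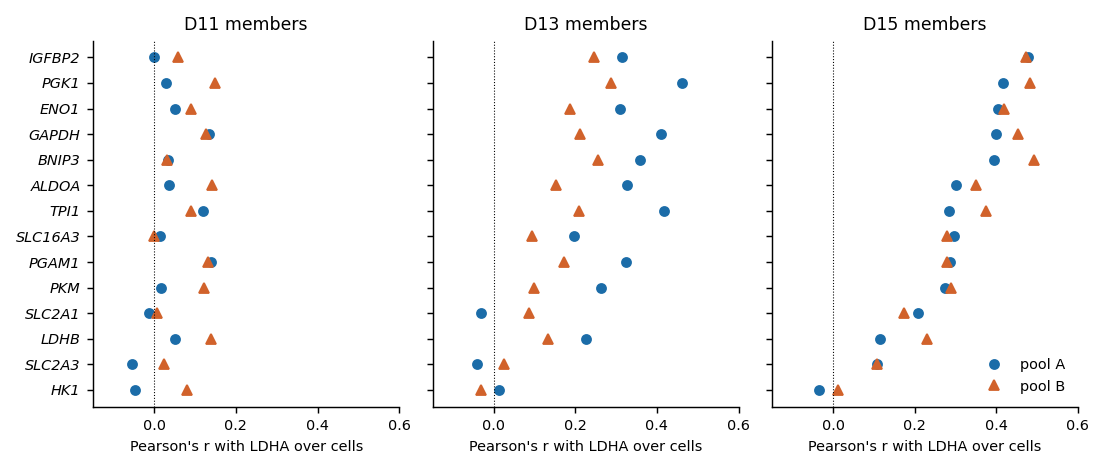
Pearson's r between LDHA and 14 further genes over the members of each pool (horizontal axes), on log2(UMIs + 1) at 10000 UMIs per cell, for D11, D13 and D15. Circles are pool A and triangles pool B. On D11 every r lies under 0.2, and on D15 PGK1, ENO1, GAPDH, BNIP3 and IGFBP2 lie near 0.4 or above in both pools. On D13 these genes lie above 0.3 in pool A and below it in pool B.

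Of 18 other genes of the list at 20 CPM or more, 4 had an r with LDHA of 0.3 or more in both D15 pools, and 0 did on D11 and 0 on D13. By pool 6 did in D13 A, 0 in D13 B, 4 in D15 A and 5 in D15 B. The D13 pools thus differed, and the count was highest in D13 A. PGK1, phosphoglycerate kinase, had r of 0.417 and 0.483 on D15 and 0.0275 and 0.149 on D11. GAPDH had 0.400 and 0.454 on D15 and 0.135 and 0.127 on D11, and ENO1, enolase, had 0.405 and 0.419 against 0.0512 and 0.0905. BNIP3, a mitophagy receptor of the hypoxia response, was chosen after its values were seen and had 0.394 and 0.494 against 0.0332 and 0.0303. Further hypoxia-response genes outside the list stayed below 0.3 on D15: P4HA1 had 0.216 and 0.156 and ADM 0.126 and 0.154. CA9 had 0.0724 and 0.0199, VEGFA 0.0267 and 0.0671, and NDRG1 -0.0305 and 0.0038. CA9, at 0.205 and 0.906 CPM in thinned members, NDRG1, at 2.46 and 1.33, and VEGFA, at 14.0 and 9.72, were under the 20 CPM asked of the list. At such levels a low r says little. Cells of all days were grown in hypoxia, as given above. On D13 the r of PGK1 with LDHA was 0.462 in pool A and 0.287 in pool B. There GAPDH had 0.409 and 0.211, ENO1 0.310 and 0.187, and BNIP3 0.359 and 0.256.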

How the data were processed

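Droplet-based 3′ single-cell RNA-seq libraries were made from 16 pools of 8 days (22 libraries, some pools having more than 1). Per the labels and the study's methods, the authors aligned and counted the reads with Cell Ranger 2.2 on a prebuilt hg38 index holding protein-coding, lincRNA and antisense genes, and deposited raw UMI counts of 33694 genes per cell barcode. The use of strand in counting is not given in the sources used here. UMI counts of the members were summed per pool. Pool sums of D15 members held 29098163 and 55432915 UMIs, those of D11 108583228 and 97101437.

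The members, gene lists and comparisons were chosen with earlier results of these data known. Genes detected in 5% or more of members were tested with edgeR 4.0.16 (R 4.3.3; TMM, quasi-likelihood test, Benjamini-Hochberg adjustment over all genes tested), with 1 mean per day over the 8 pools of D9 to D15. POU5F1 and CER1 were not tested. CPM are UMIs scaled to a pool sum of 1000000, and ratios and correlations over cells are descriptions. Shares of cells with a UMI depend on thinning: 47 such shares moved at 5000 UMIs and 47 without thinning, and 17 did not in each case. Shares, variances and correlations used cells thinned to 10000 UMIs, which left out 47 members of D15 B and 0 of D15 A. No doublet caller was run, and the 5% of members with the most UMIs were left out as an alternative. Other alternatives were DESeq2 1.42.0, other size factors, other limits of the class and leaving out pools. Named genes were the 4 of the rule and its markers, the 12 largest rises and 12 largest falls among called genes at 20 CPM or more in both pools of the higher day whose pools did not overlap (mitochondrial and ribosomal protein genes left out), the 12 leading genes, the 20 most variable genes, up to 4 called genes of each list and the 4 highest of each list of cell type markers. WNT5B, CST1, ZIC5, NLGN4X, SALL2, GDF3, NANOG, FGFR1, FGF2, FZD3, TCF7L1, TFAP2C, DNMT1, DNMT3B, SOX17, PAX6, SOX1, FABP7, the receptors and SMAD genes, and the pairs with LDHA were chosen after their values were seen. Some genes that the rule names are not reported here.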

Additional observations from a re-analysis of the deposited data

Results flagged for a closer look

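Among 6256 genes over 20 CPM in the members or the other kept cells of any D11 or D15 pool, 11 were at least 2-fold higher in members than in the other kept cells in both D11 pools and at least 2-fold lower in both D15 pools, and 0 changed sides the other way. Among them were S100A14, ACTA1, FZD5, RAB17, NPY, TFPI2, CTSV, RP11-771K4.1, WFDC2 and APOC1. They drew attention because both pools of one day lay on one side and both pools of the other on the opposite side, and the difference between days was not tested. Of the 11, 8 had members at 20 CPM or more in both D11 pools. The other 3, S100A14, NPY and RP11-771K4.1, passed the level limit through the other kept cells of D15, where they are high, so their entry depended on the change itself. Ratios were taken after adding 1 CPM. For ACTA1 the log2 ratio of members to other cells was 1.77 and 2.55 on D11 and -2.59 and -2.21 on D15. Its level in the other cells was 269 and 147 CPM on D11 and 211 and 217 CPM on D15, so most of the turn lay in the members, which went from 918 and 862 to 34.2 and 46.2 CPM. For WFDC2, a secreted protein of epithelia, the members stood at 65.8 and 79.2 CPM on D11 and 78.4 and 106 CPM on D15, while the other cells went from 26.3 and 21.5 to 193 and 359 CPM. With 2 pools a day no pool could be tested as standing apart from its group.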

How the results depend on the processing

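The number of genes called between D15 and D11 members, 292, stayed within 1.5 times under 8 alternatives, and moved to 1133 with DESeq2, 1858 without the filter on genes, 919 with only the 4 pools of the 2 days, 0 without the D9 pools, 91 with POU5F1 at 250 CPM, 135 with POU5F1 at 1000 CPM and 1098 at an adjusted p below 0.05. It was 75 with the pool letter as a replicate block. The labels do not say whether a letter joins pools of different days. The correlation of the A minus B differences between days ran from -0.193 to 0.401, the latter between D9 and D13, which does not settle it. Leaving out 1 of the 4 pools gave between 0 and 0. Between D15 and D13, 0 genes became 196 with DESeq2, 629 without the filter and 1 with the stricter filter on cells, and between 0 and 1435 when 1 pool was left out, the latter without D13 B. The cause of these shifts was not tested. Members were 77.2% of kept D15 cells in pool A at 1000 CPM of POU5F1. In pool B they were 83.7% at 250 CPM, 70.0% at 1000 CPM and 76.1% with CER1 below 50 CPM. The stricter filter on cells raised the limit on genes to 2000 and lowered that on mitochondrial UMIs to 5%. It left only 117 of the 487 D15 members in pool A and 226 of the 1703 in pool B. Among the cells that passed the stricter filter, not among all kept cells, members were 69.6% and 63.3%. At 5000 UMIs per cell 37 genes, not 72, had a variance over 2 times their mean. Of 97 named genes tested, 11 changed sign against D11 under some of 19 settings, and 0 of these were among the 65 at an adjusted p below 0.05; the log2 difference of LHX1, -0.60, was 0.79 without D11 A and -1.30 without D11 B. With pool sums thinned to the smallest total 240 genes were called.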
